A study of Mus musculus with 12 samples.

Results

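The globin genes and the other transcripts typical of young red blood cells were read in the liver RNA of mice on 4 diets, with the spread from mouse to mouse as the main object. The members were Hba-a1 and Hba-a2, which encode the alpha chain of adult haemoglobin, Hbb-b1 and Hbb-b2, which encode the beta chain, Alas2, which encodes the erythroid form of the first enzyme of haem synthesis, and Slc4a1, which encodes the anion exchanger of the red cell membrane (band 3). They were found by the RefSeq accession that the array gives for each probe, and 5 of the 6 had a probe, 1 each, out of 20882 genes with a named probe. Hbb-b1 had no probe under its current accession, which is in part a matter of naming, since older annotation gave the name Hbb-b1 to the accession now called Hbb-bt. The beta globin genes Hbb-bs and Hbb-bt, which the C57BL/6 reference genome carries in place of Hbb-b1 and Hbb-b2, each had 1 probe and are given beside the members as close relatives. The members had been selected on knowledge of their levels on these same arrays, so that their levels and differences are given as a description.

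All mice were C57BL/6N females fed for 6 months, and 3 mice per group were used. The control mice (Ctrl) had a normal formula diet with corn starch and sucrose as carbohydrate. The resveratrol mice (RS) had that diet with resveratrol, a polyphenol, added to it. In the Dongjin mice (DJ), rice of the Dongjin cultivar took the place of the starch and sucrose, and in the DJ526 mice the rice was DJ526, which is Dongjin rice that carries a transferred gene for resveratrol synthesis. RS was thus the resveratrol arm on starch and sucrose, and DJ526 and DJ differed in the transferred gene as well as in resveratrol. Each liver was hybridised to 1 one-colour Agilent array, and nothing in the sources used here says that the livers were flushed of blood.

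Red blood cells of mammals lose their nucleus as they mature, and the youngest of them, the reticulocytes, still carry RNA that is very rich in globin transcripts. The adult liver is filled with blood and does not normally make red cells, while the fetal liver does. Alas2 supplies the haem and the globin genes the protein chains of haemoglobin, and band 3 is a major protein of the red cell membrane. Several transcription factors, among them GATA1 and KLF1, drive this set of genes in erythroid cells through GATA and CACCC motifs. In bulk liver RNA, a change in the number of cells of a type and a change in the RNA per cell cannot be told apart.

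The regions just upstream of the members are shown as background, and their part in the levels of the members was not tested. These regions are the 250 bases before the annotated start in RefSeq on build GRCm38.p6, 5′ to 3′ on the strand of the gene. The table of promoters held 3 of the 6 members, Hba-a1, Hba-a2 and Alas2, and the relatives Hbb-bs and Hbb-bt. Capitals mark the GATA motif GATAA, the KLF motif CACCC, the CCAAT box and the letters ATAAA of a TATA box on either strand, so that reverse complements are in capitals too, and neighbouring or overlapping matches run together.
Hba-a2, chr11:32296242-32296491, plus strand: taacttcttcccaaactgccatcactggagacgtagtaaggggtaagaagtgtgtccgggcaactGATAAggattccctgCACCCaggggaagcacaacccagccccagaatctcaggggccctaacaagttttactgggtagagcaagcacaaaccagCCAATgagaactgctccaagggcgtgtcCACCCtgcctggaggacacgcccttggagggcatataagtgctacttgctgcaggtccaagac
Hbb-bs, chr7:103827929-103828178, minus strand: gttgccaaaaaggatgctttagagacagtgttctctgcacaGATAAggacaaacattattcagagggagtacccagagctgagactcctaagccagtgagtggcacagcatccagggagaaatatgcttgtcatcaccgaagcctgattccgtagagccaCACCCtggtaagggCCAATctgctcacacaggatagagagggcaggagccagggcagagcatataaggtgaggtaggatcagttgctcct
Hbb-bt, chr7:103813924-103814173, minus strand: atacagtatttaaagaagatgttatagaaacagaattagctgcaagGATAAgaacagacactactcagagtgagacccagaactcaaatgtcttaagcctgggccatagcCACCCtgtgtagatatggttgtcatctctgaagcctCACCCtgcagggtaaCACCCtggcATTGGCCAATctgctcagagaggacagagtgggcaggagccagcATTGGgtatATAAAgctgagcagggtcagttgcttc
Alas2, chrX:150547167-150547416, plus strand: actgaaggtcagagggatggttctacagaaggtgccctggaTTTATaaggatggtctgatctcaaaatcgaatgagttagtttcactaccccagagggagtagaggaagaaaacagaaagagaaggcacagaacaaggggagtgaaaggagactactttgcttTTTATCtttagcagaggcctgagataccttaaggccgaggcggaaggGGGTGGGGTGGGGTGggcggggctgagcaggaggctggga
The 2 alpha globin genes shared a run of 247 bases in this window, so that Hba-a1 (chr11:32283422-32283671, plus strand) is not printed again. Hbb-bs and Hbb-bt were identical at 70.5% of the aligned positions. GATAA was found 1 time in each of the 5 regions, where 22.6% of all 32851 promoters of that length held it. In Alas2 it overlapped an ATAAA of the same strand. The KLF motif CACCC was found 2 times in each alpha globin region, 1 time in Hbb-bs and 3 times in Hbb-bt and Alas2 (52.0% of all promoters held it). CCAAT was found in the globin regions, 1 time in each except for 3 in Hbb-bt, and not in Alas2 (33.8% of all promoters). ATAAA was found 1 time in Hbb-bt, at -27 from the start, and 2 times in Alas2, at -209 and -87, and 37.3% of all promoters held it. A TATA box spelled with other letters was not marked, so that a region without ATAAA can still hold one. These are matches of letters and not measured binding sites.

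A level is given throughout as the log2 of the probe's signal minus the log2 of its array's 75th percentile, so that 0 is the level of a probe at that percentile and 1 unit is a doubling. Levels of different probes are not set against each other, because probes differ in their response. All 5 member probes were well above background on all 12 arrays and saturated on none. The arrays had 73.0% to 80.8% of their spots well above background. They lay on 3 slides of 4 arrays. Slide 1 held the Ctrl mice and DJ replicate 1, slide 2 held RS replicates 1 and 2 with DJ replicates 2 and 3, and slide 3 held RS replicate 3 with the DJ526 mice. Slide and diet therefore went together in large part. A sample listing among the study's supplementary files assigns the RS and DJ arrays the other way round from the sample titles, which were followed here. If that listing were right, all RS and DJ values below would change places, and the test of the difference between the effects of resveratrol would keep its values.

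The globin and haem synthesis members showed a wide spread between mice and a common order of mice. For Hba-a1 (probe A_55_P1962303, NM_008218), the levels were 5.84, 6.06 and 6.40 in Ctrl replicates 1 to 3, 5.87, 6.16 and 5.37 in RS, 5.19, 5.80 and 6.46 in DJ, and 5.61, 7.05 and 5.82 in DJ526. DJ526 replicate 2 was the highest mouse and DJ replicate 1 the lowest, at a ratio of 3.62, and the ranges of the 4 diets overlapped. Hba-a2 (probe A_55_P1962299, NM_001083955) stood at 7.67, 7.98 and 8.10 in Ctrl, 7.67, 8.01 and 7.44 in RS, 7.47, 7.73 and 8.27 in DJ, and 7.53, 8.66 and 7.87 in DJ526. Again DJ526 replicate 2 was highest, 2.32 times the lowest mouse, which was RS replicate 3, and again the diets overlapped. The transcripts of these genes are nearly identical, so that each probe may have caught RNA of the other gene.

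For the beta globin Hbb-b2 (probe A_55_P2038540, NM_016956), the levels were 3.57, 3.82 and 4.13 in Ctrl, 3.59, 3.89 and 3.44 in RS, 2.98, 3.57 and 4.18 in DJ, and 3.39, 5.08 and 3.69 in DJ526. The highest mouse, DJ526 replicate 2, had 4.3 times the signal of the lowest, DJ replicate 1, and 1.86 times that of the next highest, DJ replicate 3. Hbb-bs (NM_001201391) had 2.32, 2.66 and 2.83 in Ctrl, 2.24, 2.60 and 1.96 in RS, 1.71, 2.23 and 2.91 in DJ, and 2.08, 3.63 and 2.33 in DJ526. Hbb-bt (NM_008220) had 5.37, 5.88 and 6.10 in Ctrl, 5.30, 5.72 and 4.92 in RS, 4.87, 5.25 and 6.03 in DJ, and 5.15, 6.70 and 5.52 in DJ526. Both relatives had the same highest and lowest mouse as Hbb-b2, with ratios of 3.79 and 3.57. The beta globin genes are near-copies of each other, and a C57BL/6 mouse carries Hbb-bs and Hbb-bt, so that the Hbb-b2 probe was read as a beta globin probe and not as the measure of 1 gene.

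Alas2 (probe A_51_P327451, NM_009653) had levels of 1.10, 1.13 and 1.45 in Ctrl, 1.14, 1.07 and 0.95 in RS, 0.78, 1.04 and 1.45 in DJ, and 0.86, 1.89 and 0.98 in DJ526. Its highest and lowest mouse were those of Hbb-b2, at a ratio of 2.16, and the diets overlapped. The anion exchanger Slc4a1 (probe A_51_P196972, NM_011403) had -3.50, -2.68 and -1.99 in Ctrl, -3.58, -3.43 and -3.65 in RS, -3.88, -3.69 and -2.93 in DJ, and -3.71, -2.68 and -3.12 in DJ526. Here Ctrl replicate 3 was highest, 3.69 times DJ replicate 1, and Ctrl replicate 1 lay among the RS and DJ mice. Slc4a1 was thus the member whose order of mice differed from that of the globins at the top.

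**Figure D1:**
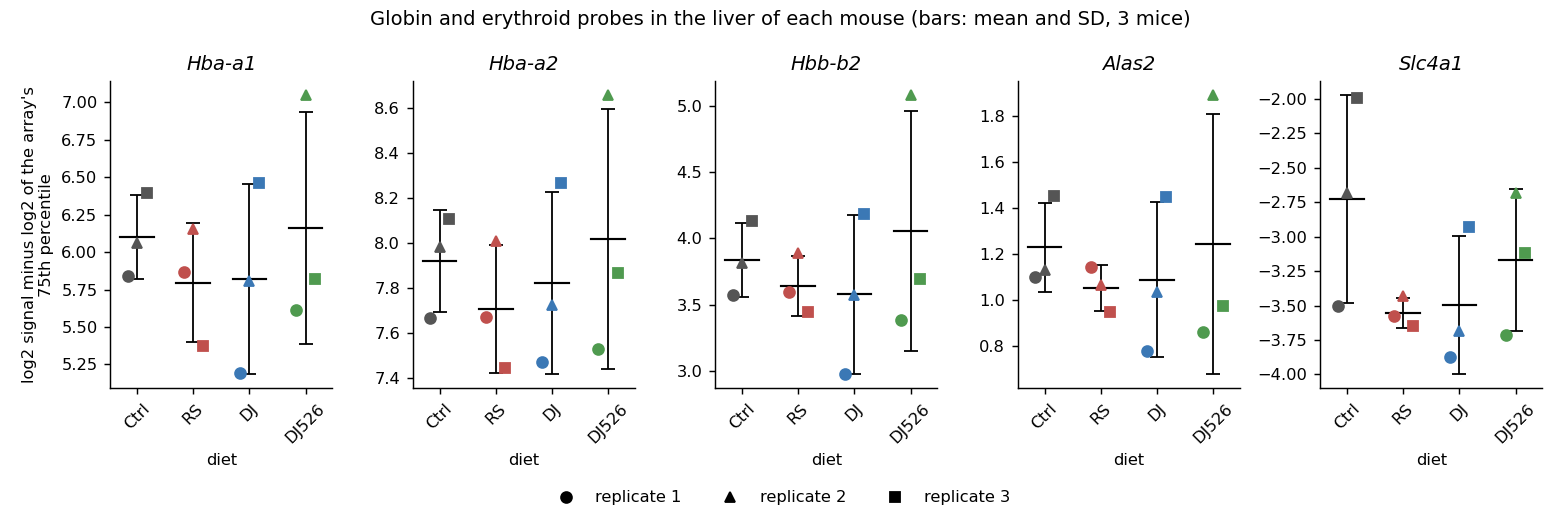
Level of each member in each of the 12 mice (log2 signal minus that of its array's 75th percentile, each panel with its own scale, not from 0), by diet, with the mean and SD of 3 mice as black bars and the replicate number as the symbol. DJ526 replicate 2 is the highest mouse for Hba-a1, Hba-a2, Hbb-b2 and Alas2, and Ctrl replicate 3 for Slc4a1, while the ranges of the diets overlap in all panels.

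The spread between mice was larger than that of most probes. The SD over the 12 mice was 0.505 for Hba-a1, 0.359 for Hba-a2, 0.525 for Hbb-b2, 0.308 for Alas2 and 0.564 for Slc4a1, where the median SD of the 27286 probes well above background on all arrays was 0.199. Between 74.5% (Alas2) and 94.6% (Slc4a1) of those probes had a smaller SD. The differences between the 4 diet means made up 11.3% of the sum of squares over the mice for Hba-a1, 11.2% for Hba-a2, 13.8% for Hbb-b2 and 8.1% for Alas2, and 37.1% for Slc4a1. The rest lay between mice on the same diet.

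DJ526 replicate 2 set much of that range. Without it, the ratio of the highest to the lowest mouse was 2.42 for Hba-a1, 1.77 for Hba-a2, 2.31 for Hbb-b2 and 1.59 for Alas2, and it stayed at 3.69 for Slc4a1. The highest mouse was then DJ replicate 3 for the 3 globin members and Ctrl replicate 3 for Alas2.

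Group means followed from these mice. Hba-a1 had 6.16 ± 0.776 (SD, n = 3) in DJ526, 6.10 ± 0.280 in Ctrl, 5.82 ± 0.636 in DJ and 5.80 ± 0.397 in RS. For Hba-a2 the means were 8.02 ± 0.577 in DJ526, 7.92 ± 0.226 in Ctrl, 7.82 ± 0.405 in DJ and 7.71 ± 0.285 in RS. Both alpha globin probes thus had the same order of diets, and no neighbours in it differed by more than their SD. Hbb-b2 had 4.05 ± 0.903 in DJ526, 3.84 ± 0.279 in Ctrl, 3.64 ± 0.227 in RS and 3.58 ± 0.603 in DJ. Alas2 had 1.24 ± 0.564 in DJ526, 1.23 ± 0.195 in Ctrl, 1.09 ± 0.336 in DJ and 1.05 ± 0.0986 in RS. The 2 diets at the top were again DJ526 and Ctrl, and the steps in the order were smaller than the SD of the mice. Slc4a1 had -2.73 ± 0.756 in Ctrl, -3.17 ± 0.516 in DJ526, -3.50 ± 0.501 in DJ and -3.55 ± 0.110 in RS, with Ctrl at the top and neighbours closer than their SD.

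The comparison of RS with Ctrl asks what added resveratrol does on the starch and sucrose diet. None of the 5 members passed limma's test with Benjamini-Hochberg adjustment over 39361 probes at an adjusted p of 0.05, where 0% of all probes passed (lowest adjusted p among the members 0.836 from limma, and 0 members at an unadjusted p under 0.05 against 6% of all probes). The log2 difference, RS minus Ctrl, was -0.30 (standard error 0.392) for Hba-a1, -0.21 (0.281) for Hba-a2, -0.20 (0.401) for Hbb-b2, -0.18 (0.247) for Alas2 and -0.83 (0.379) for Slc4a1. The 3 RS mice and the 3 Ctrl mice were free of overlap in 0 of 5 members, against 10.2% of all probes. Slc4a1 had the largest difference, and without Ctrl replicate 3 it was -0.46.

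The comparison of DJ with Ctrl exchanges starch and sucrose for rice. Again 0 of 5 members passed, against 0% of all probes (lowest adjusted p 0.965 from limma, 0 members at an unadjusted p under 0.05 against 5.21% of all probes), and 0 were free of overlap, against 9.34%. The log2 difference, DJ minus Ctrl, was -0.28 for Hba-a1, -0.10 for Hba-a2, -0.26 for Hbb-b2, -0.14 for Alas2 and -0.77 for Slc4a1, with the standard errors given for RS. Without DJ replicate 1 these values for Hba-a1, Hba-a2, Hbb-b2 and Alas2 were 0.04, 0.08, 0.04 and 0.01, and that for Slc4a1 was -0.58. Without Ctrl replicate 3 the Slc4a1 value was -0.40.

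DJ526 was compared with Ctrl for the joint effect of the rice and its resveratrol. The members called were 0 of 5, against 0.00508% of all probes (lowest adjusted p 0.699 from limma, 0 at an unadjusted p under 0.05 against 10.8%), and 0 were free of overlap, against 20.6% of all probes. The log2 difference, DJ526 minus Ctrl, was 0.06 for Hba-a1, 0.10 for Hba-a2 (-0.11 with the normexp background), 0.21 for Hbb-b2, 0.01 for Alas2 and -0.44 for Slc4a1. Without DJ526 replicate 2 the differences were -0.38, -0.22, -0.30, -0.31 and -0.69 in the same order, so that the positive values depended on that mouse. Without Ctrl replicate 1 those of Hba-a1, Hba-a2 and Alas2 were -0.07, -0.03 and -0.05, and without Ctrl replicate 2 that of Alas2 was -0.03. Without Ctrl replicate 3 the Slc4a1 difference was -0.08.

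Against DJ, which had the parent rice, DJ526 had 0 of 5 members called, against 0.0102% of all probes (lowest adjusted p 0.711 from limma, 0 at an unadjusted p under 0.05 against 9.8%, and 0 free of overlap against 18.4%). The log2 difference, DJ526 minus DJ, was 0.34 for Hba-a1, 0.20 for Hba-a2, 0.48 for Hbb-b2, 0.15 for Alas2 and 0.33 for Slc4a1. Without DJ526 replicate 2 it was -0.10, -0.12, -0.04, -0.17 and 0.08, and without DJ replicate 1 it was 0.03, 0.02, 0.18, 0.00 and 0.14. A block for the replicate number left 0 of 5 members and 0 of all probes called (4 probes passed without it). Against RS, which had resveratrol without rice, 0 of 5 were called, against 0.00762% of all probes (lowest adjusted p 0.986 from limma, 0 at an unadjusted p under 0.05 against 5.5%, and 0 free of overlap against 11.1%). The log2 difference, DJ526 minus RS, was 0.36 for Hba-a1, 0.31 for Hba-a2, 0.41 for Hbb-b2, 0.19 for Alas2 and 0.38 for Slc4a1. Without DJ526 replicate 2 it was -0.08, -0.01, -0.10, -0.13 and 0.14. These comparisons share the DJ526 or the Ctrl arrays and are not independent of each other.

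The effect of resveratrol on rice (DJ526 minus DJ) less that on starch and sucrose (RS minus Ctrl) was 0.64 for Hba-a1 (standard error 0.554), 0.41 for Hba-a2 (0.398), 0.68 for Hbb-b2 (0.568), 0.33 for Alas2 (0.349) and 1.15 for Slc4a1 (0.536). The test of this difference called 0 of 5 members, against 0% of all probes (lowest adjusted p 0.828 from limma, 0 at an unadjusted p under 0.05 against 6.09%). Without DJ526 replicate 2 the values were 0.20, 0.09, 0.16, 0.01 and 0.91. The standard errors of 0.247 to 0.401 in the comparisons of 2 diets were as large as most of the globin and Alas2 differences themselves.

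Slide and diet could be separated only in part. With the slide as a block, RS minus Ctrl was -1.03 for Hba-a1, -0.60 for Hba-a2, -0.998 for Hbb-b2, -0.59 for Alas2 and -1.35 for Slc4a1. DJ minus Ctrl was -0.91, -0.44, -0.86, -0.45 and -1.15 in the same fit, and DJ526 minus Ctrl was -0.24, -0.03, -0.39, -0.29 and -0.87. None of these passed the test. On slide 1, DJ replicate 1 alone stood against the 3 Ctrl mice, and the blocked DJ values are those of that 1 mouse minus the Ctrl mean. On slide 2, the 2 RS mice minus the 2 DJ mice gave -0.12 for Hba-a1, -0.16 for Hba-a2, -0.14 for Hbb-b2, -0.14 for Alas2 and -0.20 for Slc4a1. On slide 3, the 3 DJ526 mice minus RS replicate 3 gave 0.79, 0.57, 0.61, 0.30 and 0.48. Ctrl shared no slide with RS or DJ526, so that these differences within a slide have no value. The blocked RS and DJ526 values against Ctrl therefore also rest on DJ replicate 1, the only link of Ctrl to another diet. That mouse had the lowest level of all for Hba-a1, Hbb-b2, Alas2 and Slc4a1.

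**Figure D2:**
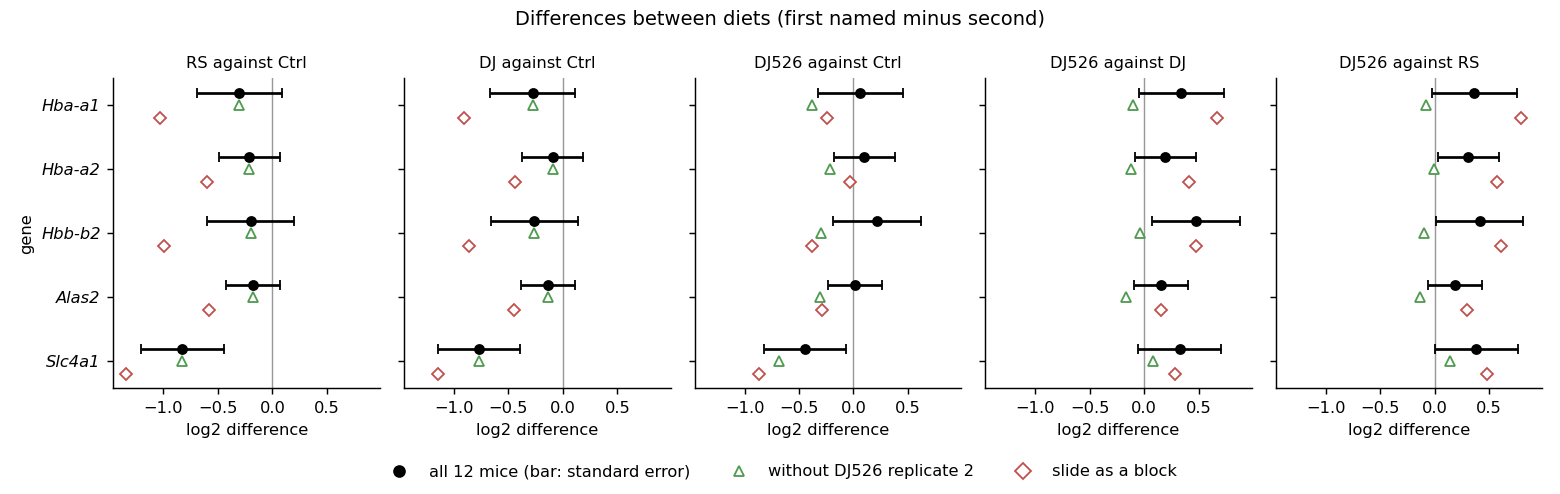
Log2 difference of each member in the 5 comparisons of 2 diets (first named minus second) from all 12 mice, with the standard error as a bar, without DJ526 replicate 2, and with the slide as a block. The DJ526 differences of the globins and Alas2 lie above 0 with all mice and below 0 without DJ526 replicate 2, and the slide block puts RS and DJ further below Ctrl. With that block, all differences from Ctrl rest on DJ replicate 1.

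Across the 12 mice, the members moved together. The brighter alpha globin probe (Hba-a2), the Hbb-b2 probe, Alas2 and Slc4a1 form 6 pairs, and p-values are two-sided from 100000 permutations of the mice with adjustment over the 6 pairs. Hba-a2 and Hbb-b2 had Pearson's r of 0.959 (permutation p = 2e-05, adjusted 6e-05) and Spearman's rho of 0.958 (permutation p = 3e-05, adjusted 0.00018). Without DJ replicate 3 and DJ526 replicate 2, the mice farthest from the median of Hba-a2, r was 0.904. The alpha and beta chains of haemoglobin, read by different probes, thus ordered the mice in nearly the same way.

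Alas2 followed the globins. Hba-a2 and Alas2 had r of 0.918 (permutation p = 2e-05, adjusted 6e-05) and rho of 0.818 (permutation p = 0.0018, adjusted 0.0022), and r of 0.757 without the same pair of mice. Hbb-b2 and Alas2 had r of 0.961 (permutation p = 3e-05, adjusted 6e-05) and rho of 0.881 (permutation p = 0.00029, adjusted 0.00058), and r of 0.895 without DJ replicate 1 and DJ526 replicate 2. A unit of log2 in the Alas2 signal went with 1.64 units in the Hbb-b2 signal by the regression slope over the mice. Probes differ in their response, and the slope of Hba-a1 on the nearly identical Hba-a2 was 1.37. The slopes are thus those of probe signals and not of transcript amounts.

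Slc4a1 followed the globins less closely than Alas2 by Pearson's r over all mice, and about as closely by Spearman's rho. Its r was 0.745 with Hba-a2 (permutation p = 0.0057, adjusted 0.0086; rho 0.825, permutation p = 0.0017, adjusted 0.0022) and 0.817 without DJ replicate 3 and DJ526 replicate 2. With Hbb-b2, r was 0.712 (permutation p = 0.011, adjusted 0.011; rho 0.895, permutation p = 0.00016, adjusted 0.00048), and 0.8 without DJ replicate 1 and DJ526 replicate 2. With Alas2, r was 0.726 (permutation p = 0.0087, adjusted 0.01; rho 0.811, permutation p = 0.0023, adjusted 0.0023), and 0.665 without Ctrl replicate 3 and DJ526 replicate 2.

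These relations were not carried by the diet means. After the mean of each diet was taken off, r was 0.971, 0.917 and 0.82 for Hba-a2 with Hbb-b2, Alas2 and Slc4a1, 0.973 and 0.785 for Hbb-b2 with Alas2 and Slc4a1, and 0.763 for Alas2 with Slc4a1. After the mean of each slide was taken off, r lay between 0.793 and 0.972 over the 6 pairs. A slide held 4 arrays, too few for r within it. The members were chosen as genes of 1 cell type and with earlier results in view, so that the p-values add no support of their own. The probes also share the scaling of each array.

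**Figure D3:**
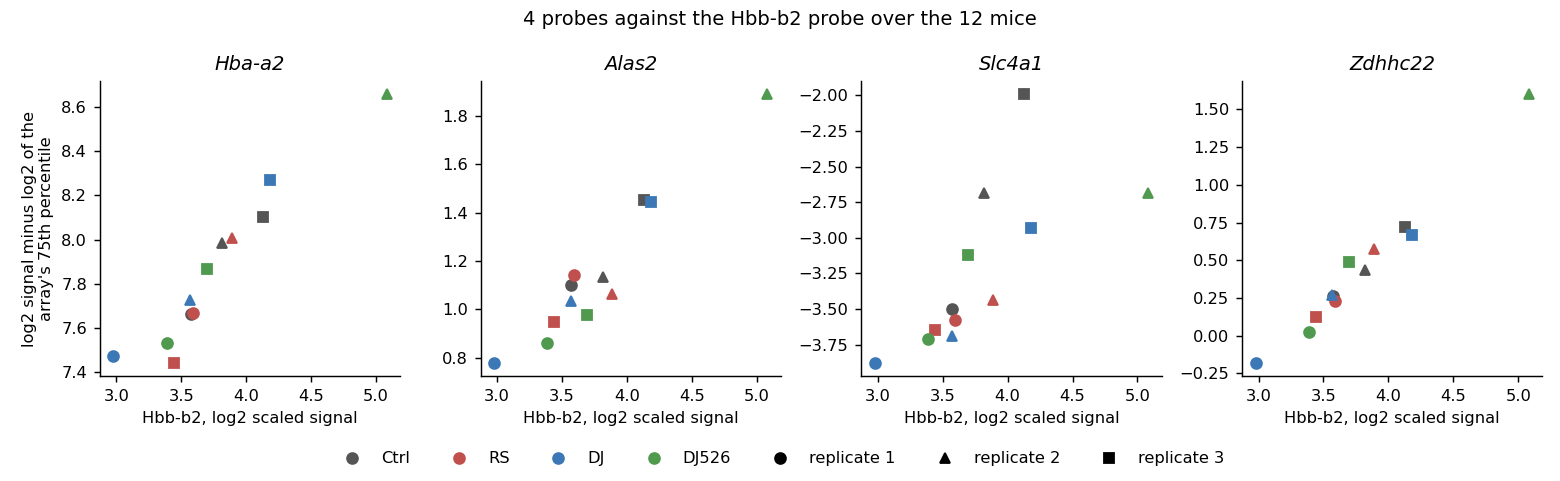
Level of Hba-a2, Alas2, Slc4a1 and Zdhhc22 against that of Hbb-b2 in the 12 mice (log2 signal minus that of the array's 75th percentile on both axes), with diet as colour and replicate number as symbol. Hba-a2, Alas2 and Zdhhc22 rise along Hbb-b2 with r of 0.959, 0.961 and 0.989, and in the Slc4a1 panel Ctrl replicate 3 stands above the trend.

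The genes whose level followed Hbb-b2 most closely were then listed over 15563 genes well above background on all arrays, with the globins left out, as a description. Zdhhc22, of a family of protein palmitoyltransferases, had r of 0.989 over the 12 mice, 0.989 after the diet means were taken off and 0.974 without DJ526 replicate 2. St7 had 0.890 (0.788 without DJ526 replicate 2), Wdr62 had 0.846 (0.52) and Cdr2 had 0.812 (0.809). Wdr62 therefore rested on DJ526 replicate 2.

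Zdhhc22 had 0.26, 0.44 and 0.72 in Ctrl, 0.23, 0.58 and 0.12 in RS, -0.18, 0.27 and 0.67 in DJ, and 0.03, 1.60 and 0.49 in DJ526. Its highest mouse had 3.43 times the signal of its lowest, and these were DJ526 replicate 2 and DJ replicate 1, as for the beta globins. Over all genes compared, the median r with Hbb-b2 was 0.00331, 7 genes had r of 0.9 or more and 12 of 0.8 or more, the Hbb-b2 probe itself not counted. The members and relatives Hbb-bs, Hba-a1, Alas2, Hba-a2 and Hbb-bt were among those 7, and Slc4a1 had rank 50.

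Among the other globin genes of the genome, Hbb-bs and Hbb-bt followed the members and the embryonic Hbb-y and Hbb-bh1 did not. The list held 12 genes, 11 with a probe and 7 well above background on all arrays, and its values in DJ526 against Ctrl ran from 0.01 in Hbb-bt to 0.95 in Hbb-y, with 0 called (2 of 7 at an unadjusted p under 0.05, against 10.8% of all probes; median 0.29 against 0.02 over all probes). Hbb-y, an embryonic beta-like globin, had -4.32, -4.84 and -4.19 in Ctrl, -4.15, -3.74 and -2.87 in RS, -4.00, -3.98 and -4.31 in DJ, and -3.64, -3.54 and -3.31 in DJ526. The 4 arrays of slide 3 had the 4 highest Hbb-y levels, and the same held for the embryonic Hbb-bh1. The part of the slide in these values was not tested. The r of Hbb-y with Hbb-b2 was -0.03 and that of Hbb-bh1 -0.02. Hbq1a, a theta-like globin, was well above background on 8 arrays and highest in DJ526 replicate 2, with r of 0.742.

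Some markers of nucleated red cell precursors were well above background on few or no arrays. Of 24 erythroid regulators and maturation genes, 21 were so on all arrays, which does not make their levels high. Gata1, which encodes a main transcription factor of the lineage, was well above background on 4 of 12 arrays. Of the 22 genes for red cell membrane and surface proteins, 12 were well above background on all arrays, while Epb42 and Rhag were so on none and Rhd and Kel on 2. Rhd, of the Rh blood group, stood at -6.05 in Ctrl replicate 2 and -4.21 in Ctrl replicate 3, and at -7.64 or less in the other mice. Kel, of the Kell blood group, had -6.49 and -5.41 in those mice and -7.31 or less in the others. Ctrl replicates 2 and 3 also had the highest Slc4a1 levels but for DJ526 replicate 2, which had the same level of -2.68 as Ctrl replicate 2. Klf1, which encodes a regulator of the beta globin genes, was well above background on all arrays, at -2.99 to -1.85, and was highest in RS replicate 3.

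Of the membrane list, 0 of 12 measured genes were called in DJ526 against Ctrl (2 at an unadjusted p under 0.05, where 0.00508% of all probes were called and 10.8% had such a p; median -0.10 against 0.02 over all probes), from -0.46 for Slc2a1, a glucose carrier, to 0.46 for Tspo2, an erythroid relative of the translocator protein. Of 24 erythroid regulators and maturation genes, 21 were measured on all arrays and 0 called (3 at an unadjusted p under 0.05, against the same 10.8%; median -0.02), from -0.92 for Car2, a carbonic anhydrase, to 0.35 for Zfpm1, the GATA1 partner FOG1. The r of these genes with Hbb-b2 had a lowest value of -0.51, with 0.808 for Mkrn1 and 0.751 for Bpgm, which makes 2,3-bisphosphoglycerate in red cells, and a median of 0.192. The mean of these 21 genes had r of 0.626 with Hbb-b2 and was highest in Ctrl replicate 3, while the mean of the membrane list had r of 0.122. Most of the regulators and maturation genes thus did not follow the order of mice singly, while Mkrn1 and Bpgm came close to it.

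Of the 8 other enzymes of haem synthesis, all were measured and 0 called in DJ526 against Ctrl (0 at an unadjusted p under 0.05, against 0.00508% of all probes called and 10.8% at such a p; median -0.15 against 0.02 over all probes). Alas1, the form of the first enzyme that liver cells use, was lowest at -0.60, and Fech, which inserts the iron, highest at 0.13. Their r with Hbb-b2 ran from -0.29 to 0.43, and that of Alas1 was -0.05, where that of Alas2 was 0.961. The liver form and the erythroid form of this enzyme therefore ordered the mice differently. Of 19 genes for clearance of haem and haemoglobin and for iron, 18 were measured and 0 called (3 at an unadjusted p under 0.05, against the same 10.8%; median 0.02). Hamp, the iron hormone hepcidin, had the highest difference at 1.12 (adjusted p = 0.237 from limma) and Slc11a1, a metal carrier of macrophages, the lowest at -0.44. Haptoglobin (Hp), which binds free haemoglobin, differed by -0.09, haemopexin (Hpx), which binds haem, by 0.05, and Hmox1, which breaks haem down, by -0.28.

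Markers of the other cells that blood and liver hold shared some of their high mice with the members and not others. For each list, the deviation of every gene from its own mean over the 12 mice was averaged within a mouse. The 5 members had their highest mean in DJ526 replicate 2 (0.89), then in Ctrl replicate 3 (0.51) and DJ replicate 3 (0.38), and their lowest in DJ replicate 1 (-0.60). The 8 measured neutrophil genes of 13 listed ranged from -0.08 to 1.63 in Ctrl, -0.65 to 0.20 in RS, -0.50 to 0.61 in DJ and -0.42 to -0.05 in DJ526, with Ctrl replicate 3 highest and DJ replicate 3 next. S100a8, an abundant neutrophil transcript, was at 0.97 in Ctrl replicate 3 and at -2.07 in DJ526 replicate 2. The mouse with the highest globin signal thus had a low neutrophil signal (-0.42), while Ctrl replicate 3 was highest in neutrophil genes and in Slc4a1, Rhd and Kel.

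The 11 measured lymphocyte genes ranged from -1.04 to -0.13 in Ctrl, -0.48 to 0.48 in RS, -0.44 to 1.36 in DJ and -0.34 to 1.17 in DJ526. DJ replicate 1, which had the lowest globin signal, was the highest mouse, and Ms4a1, a B cell gene, was at 0.75 there and at -3.94 in Ctrl replicate 2. Ms4a1 also had the largest value of the list in DJ526 against Ctrl, 1.83 (adjusted p = 0.526 from limma), and Cd3e, a T cell receptor subunit, the smallest, 0.05. The 12 Kupffer cell and macrophage genes ranged from -0.12 to 0.71 in Ctrl, -0.29 to 0.22 in RS, -0.31 to 0.15 in DJ and -0.36 to 0.25 in DJ526, with Ctrl replicate 3 highest and DJ526 replicate 2 lowest. Clec4f, a Kupffer cell receptor, was at 3.75 and 2.91 in those mice, and Adgre1 (F4/80) at 1.95 and 0.85.

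The 9 measured platelet and megakaryocyte genes ranged from 0.05 to 0.25 in Ctrl, -0.12 to 0.14 in RS, -0.36 to 0.50 in DJ and -0.20 to 0.03 in DJ526, with DJ replicate 3 highest and Ctrl replicate 3 next, both also high in the members. Itgb3, an integrin of platelets chosen after its values were seen, had r of 0.772 with Hbb-b2 and the same highest and lowest mouse. Ppbp, a platelet chemokine, was at -1.98 in DJ replicate 3 and at -3.34 in DJ526 replicate 2. The 11 hepatocyte genes had a range of 0.288 over the mice, the narrowest of these cell type lists, and Alb, the gene for serum albumin, was at 9.01 to 9.41. The r of the list mean with Hbb-b2 was 0.239 for neutrophils, -0.289 for lymphocytes, 0.0186 for Kupffer cells, 0.432 for platelets and 0.165 for hepatocytes. In all 5 lists 0 genes were called in DJ526 against Ctrl, with 1 of 8, 2 of 11, 0 of 12, 0 of 9 and 2 of 11 at an unadjusted p under 0.05 against 10.8% of all probes. The part of these cells in the member values was not tested.

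**Figure D4:**
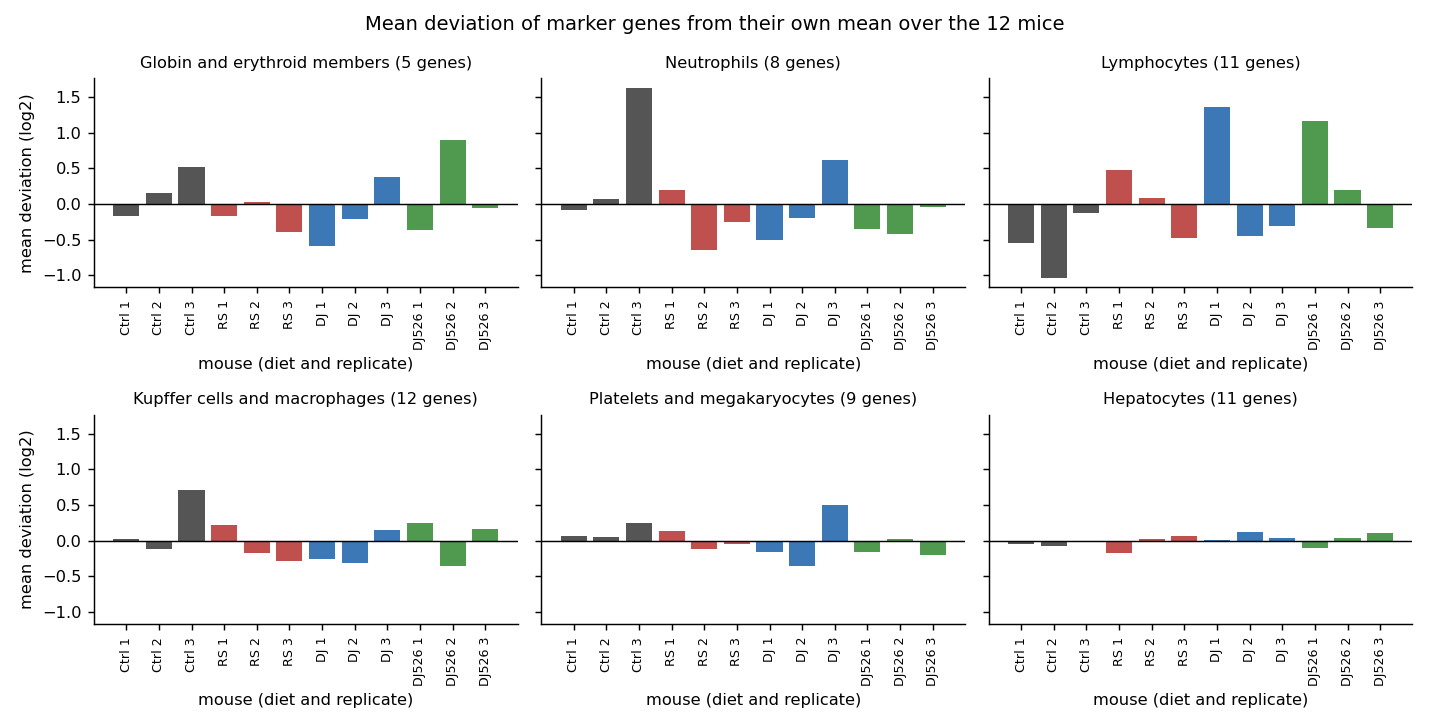
Mean deviation of the genes of a list from their own mean over the 12 mice (log2 units, bars from 0), per mouse and coloured by diet, for the members and 5 lists of cell type markers. The globin bar is highest in DJ526 replicate 2 (0.89), the neutrophil bar in Ctrl replicate 3 (1.63) and the lymphocyte bars in DJ replicate 1 (1.36) and DJ526 replicate 1 (1.17), while the hepatocyte bars stay near 0.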

How the data were processed

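Liver RNA of 12 mice was measured on 12 one-colour arrays, and groups and replicate numbers were taken from the sample titles. The authors deposited the signal intensity of every spot from Feature Extraction (version 11.5.1.1, per the file headers), background subtracted and on a linear scale, and a table of globally normalized intensity values. Control and outlier-flagged spots were left out and the spots of a probe averaged. The log2 of the signal, minus that of the array's 75th percentile, was computed here; the authors deposited no log2 values. Of 39429 probes, 69.8% were named by RefSeq accession, and 68 lacked a value on some array. The number of arrays and the signal over background limit the precision.

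limma (3.58.1, R 4.3.3) was fitted to all 12 arrays with 1 mean per group, a prior that follows the mean signal, and Benjamini-Hochberg adjustment over all probes (threshold 0.05), since 3 mice a group leave 8 residual degrees of freedom. The replicates are separate mice. The paper says that mice were housed several to a cage and that cages were assigned to the groups at random. The cage of each array mouse is not given, so that mice of a diet may have shared a cage. Relations used numpy 2.4.6, scipy 1.17.1 and pandas 2.3.3 (Python 3.11.15), and figures matplotlib 3.10.9. The fit and the permutation test were tested on simulated data. The members, the gene lists and the tests were chosen with earlier results of these data known. Genes named are the members, the highest and lowest gene of each list in DJ526 against Ctrl, defining markers and the 5 genes most like Hbb-b2. Of these, 1 defining marker and 1 of the 5 genes are not reported here. Rhd, Kel, Epb42, Rhag, Hbb-bh1, Hbq1a, Mkrn1, Bpgm and Itgb3 were named after their values were seen. A gene was read by its brightest probe, and Hbb-b2 stood for the beta globins because it is the only beta member with a probe.

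Alternatives were quantile normalization, the deposited normalized table, normexp background on the median pixel (offset 50, flagged local backgrounds replaced by the median of the array, a step chosen after seeing the data), a filter on dim probes, a prior without the variance trend, the slide or the replicate number as a block, only the compared groups, the methods' t-test, other globin probes and leaving out each mouse. Correlations over 27286 probes between the deviations of same-numbered mice ran from -0.354 to 0.407. The numbers were read as pairing the mice only where all 3 pairs were above 0.1, which held for DJ with DJ526 alone (0.164 to 0.287). Mice of different numbers were not correlated for comparison, so that this rule cannot show that the mice were paired.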

Additional observations from a re-analysis of the deposited data

How the results depend on the processing

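The number of members called was 0 of 5 in every comparison under every alternative, leaving out each mouse included (lowest 0, highest 0), and the 6 relations kept their sign and their side of the threshold wherever they were run (239 values in all). Pearson's r without each mouse ran from 0.929 to 0.972 for Hba-a2 with Hbb-b2, 0.836 to 0.94 for Hba-a2 with Alas2, 0.709 to 0.853 for Hba-a2 with Slc4a1, 0.907 to 0.973 for Hbb-b2 with Alas2, 0.66 to 0.804 for Hbb-b2 with Slc4a1 and 0.683 to 0.791 for Alas2 with Slc4a1. Of 625 member differences under alternatives, 25 changed sign and 10 moved by more than the spread between mice, all 10 with the slide as a block. In that fit, DJ replicate 1 is the only link between Ctrl and the other diets. The part of the slide itself in these moves was not tested. With the replicate number as a block, 0 of 5 members were called in each comparison. That includes DJ526 against DJ, where the deviations of same-numbered mice had correlations of 0.164 to 0.287. Over all probes the block gave 0 calls there, against 4 without it. The changes of sign concerned the DJ and DJ526 comparisons of the globins and Alas2 and are given with those results. The members were well above background on all 12 arrays. Slc4a1 was dim, however, at levels of -3.88 to -1.99, and the normexp background made all its differences smaller in size. Its DJ526 minus DJ was 0.10 with that background, against 0.33 in the main fit. Its difference between the effects of resveratrol was 0.70, against 1.15.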
